A study of Rattus norvegicus with 123 samples.

Results

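ENSRNOT00000044127 is the probe set for 1 Ensembl transcript of the rat, 1 of 22470 distinct transcripts measured in liver on Affymetrix RaGene 2.0 ST arrays. It was chosen by its differences from controls with phenobarbital and with piperonyl butoxide, the largest rises of any transcript in those 5 comparisons. Those differences are therefore given as a description and are not tested. Neither the deposited table nor the gene tables used here pair the transcript with a gene symbol, so no gene, position, sequence or function is given for it. For the same reason the liver label could not be checked against marker genes. No other probe set carried the same values on every array.

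The study gave rats compounds classed as nongenotoxic liver carcinogens, 2 compounds classed as non-carcinogens, or a vehicle, by daily gavage, and took the liver the day after the last dose. All animals are described as adult male Han Wistar rats. Names of treated groups carry the letter M, but 2 cyproterone acetate groups and their controls carry F, and the labels explain neither letter. The cyproterone acetate groups are told apart below by these letters, with M also used for the controls of the M groups, whose names carry none. The labels mark 11 of the 123 arrays as not of good quality, and 112 arrays in 29 groups of 3 to 5 were used. Values are log2 levels from robust multi-array averaging (RMA), a background correction, normalization and summary over the probes of a transcript, and array medians lay between 5.43 and 5.64.

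The treated groups were compared with the vehicle group that the labels assign to them. Phenobarbital at 80 mg/kg for 14 d (3 arrays used), 28 d (5) and 90 d (3) was set against carboxymethylcellulose of set A at the same days (5, 5 and 4). The carboxymethylcellulose controls of set C (3 at each day) served 2 compounds, with 3 arrays in every treated group. These were piperonyl butoxide, dosed with 600 mg/kg over 14 or 28 d, and methapyrilene HCl, dosed with 30 mg/kg over 14 or 28 d or with 100 mg/kg over 14 d. Wy-14643 at 60 mg/kg for 28 d (5) was set against carboxymethylcellulose of set B (5), and 1,4-dichlorobenzene at 600 mg/kg for 28 d (4) against corn oil of set B (4). Cyproterone acetate at 100 mg/kg for 14 and 28 d, in F and in M groups, was set against corn oil of set D of the same letter and day, with 4 arrays in every group. One group of water controls of set E (5) served pioglitazone, dosed with 16 mg/kg (3) or 63 mg/kg (5), and rosiglitazone, dosed with 10 mg/kg (3), all over 28 d.

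As background, phenobarbital is the textbook inducer of drug-metabolising enzymes in rodent liver. It acts through the nuclear receptor CAR, and the related receptor PXR answers to many steroids and drugs. Genes switched on through these receptors can be almost silent in an untreated liver and abundant in a treated one. Wy-14643 acts through another nuclear receptor, PPAR alpha, and pioglitazone and rosiglitazone, both thiazolidinediones, through PPAR gamma. Whether the transcript described here is controlled by any of these receptors was not measured.

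The level of the transcript ran from 3.19 on a water control array to 12.95 on an array of piperonyl butoxide at 28 d. Ordered by their means, 6 of the 29 groups stood apart at the top. The 6 highest groups were the 3 phenobarbital groups, 1,4-dichlorobenzene and both piperonyl butoxide groups, with means from 12.68 down to 11.76. The rises with phenobarbital and piperonyl butoxide chose the transcript, so the high place of those groups followed from the choice. Among the 6, only 1,4-dichlorobenzene had no part in it. Under the 6 groups lay a gap of 2.12, the only one of the 28 steps between neighbouring groups across which no arrays overlapped. Below it came Wy-14643 with a mean of 9.64 and the 4 cyproterone acetate groups, from 9.25 in M at 28 d to 8.06 in F at 28 d. The remaining treated groups, methapyrilene, rosiglitazone and pioglitazone, had means of 5.39 to 7.08. Methapyrilene at 100 mg/kg (7.08) and at 30 mg/kg for 28 d (6.93) lay above the highest control mean, 6.65, and the other 4 lay among the control means, which ran from 3.87 to 6.65. The gap between neighbours was larger than their pooled SD at 3 of the 28 steps: below piperonyl butoxide at 14 d, between Wy-14643 and cyproterone acetate M at 28 d (0.40 against 0.35), and between cyproterone acetate M and F at 14 d (0.45 against 0.43). At the other steps neighbouring groups did not differ beyond their spread. In tissue RNA such as this, more cells of a type and more RNA per cell cannot be told apart.

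**Figure D1:**
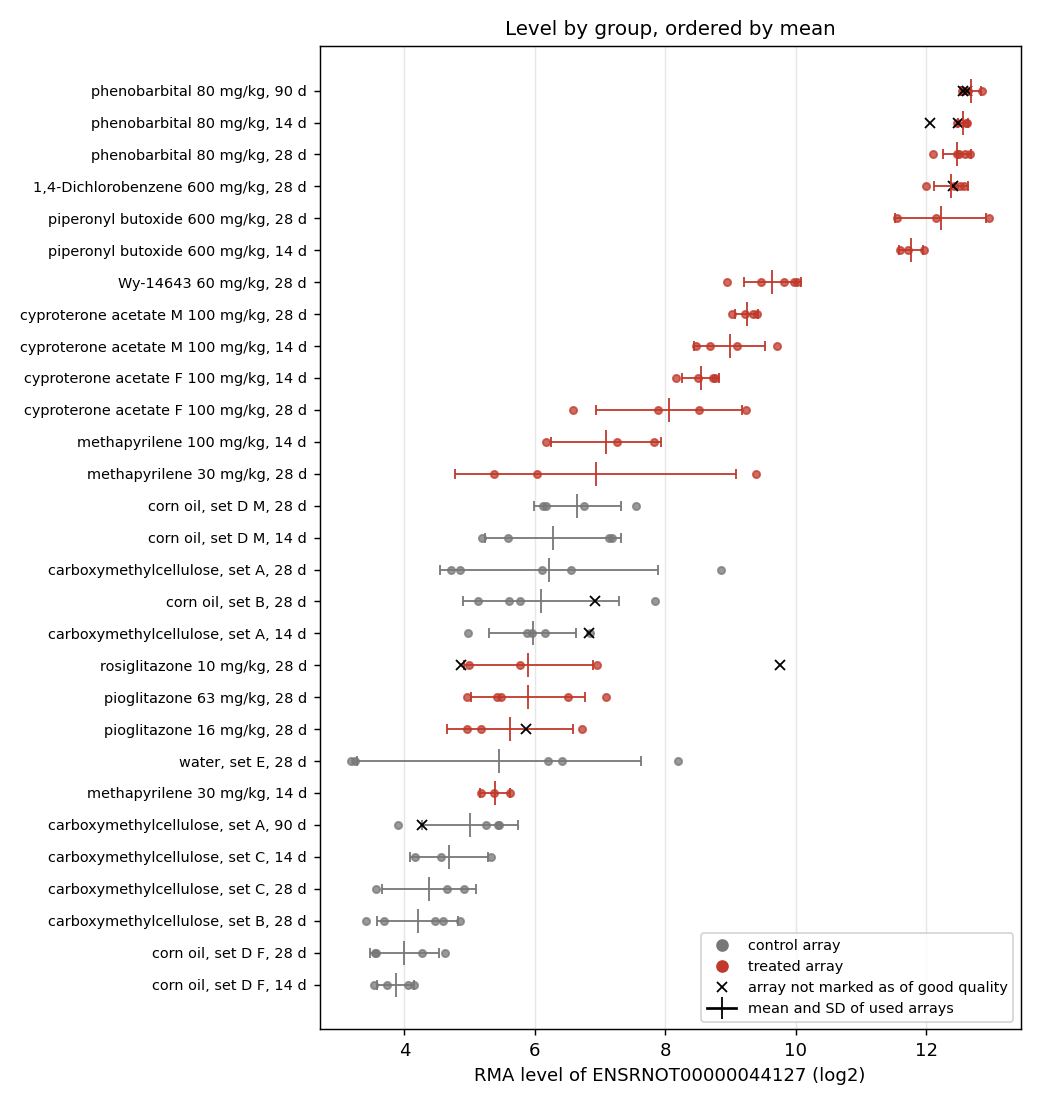
Level of ENSRNOT00000044127 in all 29 groups, in log2 units on the horizontal axis, ordered by group mean. Points are single arrays, vertical ticks and bars are the mean and SD of the used arrays, and crosses are arrays not marked as of good quality; the 6 highest groups lie apart from all others, and the 50 control arrays spread from 3.19 to 8.85.

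With phenobarbital, all arrays read close to the same level at every time. At 14 d the treated arrays read 12.48, 12.61 and 12.62, and their controls 4.98, 5.88, 5.96, 6.15 and 6.85. At 28 d they read 12.11, 12.48, 12.50, 12.59 and 12.67, against 4.71, 4.86, 6.11, 6.56 and 8.85 in controls. At 90 d they read 12.54, 12.65 and 12.85, against 3.91, 5.25, 5.43 and 5.44. No treated array overlapped a control at any time. The differences were 6.60, 6.25 and 7.67 log2 units (SE 0.66, 0.57 and 0.69), or 97.2-, 76.2- and 204-fold. A low control level cannot be told from background here, so the size of these folds and of those given below is uncertain. Treated means moved by -0.10 from 14 to 28 d and by 0.21 from 28 to 90 d, while control means moved by 0.25 and -1.21, so the larger difference at 90 d went with lower controls more than with higher treated arrays. Of all transcripts, 0.672%, 0.952% and 1.36% were raised at the 3 times at an adjusted p under 0.05, the threshold used throughout.

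Piperonyl butoxide, which is added to insecticides and blocks cytochrome P450 enzymes, gave levels close to these. The arrays read 11.60, 11.71 and 11.96 at 14 d, against 4.16, 4.57 and 5.33 in controls. They read 11.55, 12.15 and 12.95 at 28 d, against 3.57, 4.66 and 4.91. The 14 and 28 d arrays overlapped each other and stood far above every control, by differences of 7.07 and 7.84 (SE 0.74 each), or 135- and 229-fold. The treated means, 11.76 and 12.22, were below those of phenobarbital, and so were the control means of set C, 4.69 and 4.38, against 5.96 and 6.22 in set A. Here 1.23% and 4.93% of transcripts were raised at 14 and 28 d.

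The largest rise among the comparisons that had no part in the choice was that with 1,4-dichlorobenzene, an aromatic chlorinated hydrocarbon. Its arrays read 11.99, 12.43, 12.52 and 12.57, against 5.14, 5.60, 5.78 and 7.83 with corn oil. The lowest treated array lay 4.16 above the highest control. The rise was 6.29 (SE 0.64, 4 against 4 arrays, adjusted p = 2.07e-12 with limma), or 78.2-fold (95% interval 32.3 to 189), and no other of the 22470 transcripts rose as much. Of all transcripts, 3.89% rose in this comparison.

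Wy-14643, a peroxisome proliferator in rats, raised the transcript to an intermediate level. The arrays read 8.95, 9.46, 9.82, 9.96 and 10.01, against 3.42, 3.68, 4.47, 4.59 and 4.86 in controls. All 5 lay above all controls, by 4.09 or more. The rise was 5.44 (SE 0.57, adjusted p = 2.89e-13 with limma), or 43.3-fold (95% interval 19.7 to 95.6), which ranked 3 among the rises of 22470 transcripts, of which 11.9% passed as raised. The treated mean was 9.64, against 12.38 with 1,4-dichlorobenzene, and the controls of the 2 compounds, given different vehicles, had means of 4.20 and 6.09.

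Cyproterone acetate, a synthetic steroid used as an antiandrogen, raised the transcript in F and M groups at both days. In F at 14 d the arrays read 8.16, 8.49, 8.73 and 8.77, against 3.54, 3.73, 4.05 and 4.15 in controls. In F at 28 d they read 6.58, 7.89, 8.51 and 9.23, against 3.55, 3.56, 4.27 and 4.62. In each case all 4 treated arrays were above all 4 controls, and replicate 3 at 28 d was the lowest of the treated arrays. The rises were 4.67 and 4.06 (SE 0.64 each, adjusted p = 1.38e-08 and 5.65e-07 with limma), or 25.5- and 16.6-fold, against a background of 7.53% and 8.91% of transcripts raised.

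In M at 14 d the arrays read 8.47, 8.68, 9.10 and 9.70, against 5.18, 5.59, 7.14 and 7.18 in controls. In M at 28 d they read 9.02, 9.22, 9.34 and 9.41, against 6.12, 6.17, 6.76 and 7.55. The groups did not overlap at either day. The rises were 2.72 and 2.60 (SE 0.64 each, adjusted p = 0.00171 and 0.00261 with limma), or 6.57- and 6.05-fold, with 5.22% and 6.16% of transcripts raised.

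The F and M groups differed as controls, and their difference under cyproterone acetate did not pass the test. In corn oil controls the F mean was lower by 2.41 at 14 d (3.87 against 6.28; SE 0.64, adjusted p = 0.00741 with limma) and by 2.65 at 28 d (4.00 against 6.65; adjusted p = 0.00234), and no F control reached an M control at either day. Falls of this kind were called for 4.05% and 3.6% of transcripts. In treated animals the F mean was lower by 0.45 (SE 0.64, 95% interval of the difference -1.73 to 0.82, adjusted p = 0.898) and by 1.19 (-2.47 to 0.09, adjusted p = 0.316), and the arrays overlapped. Such falls were called for 0.423% and 2.22% of transcripts. The rise in F exceeded that in M by 1.96 at 14 d and by 1.46 at 28 d (SE 0.91 each, 95% intervals 0.15 to 3.76 and -0.34 to 3.26). This difference between the 2 rises did not pass the test over all transcripts (adjusted p = 0.303 and 0.541 with limma, where 1.93% and 2.06% of transcripts passed with a larger rise in F). Between 28 and 14 d the rise differed by -0.12 in M and -0.61 in F (SE 0.91 each, 95% intervals -1.92 to 1.69 and -2.42 to 1.19). The adjusted p was 0.998 and 0.999 with limma, with 0.00445% of transcripts called as lower in each.

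Methapyrilene, an antihistamine that damages rat liver, gave levels of 5.17 to 9.39. Its comparisons share their controls with piperonyl butoxide, so the low level of these controls had a part in the choice of the transcript, and its differences from them are given as a description with no test. At 30 mg/kg and 14 d the arrays read 5.17, 5.37 and 5.62, against 4.16, 4.57 and 5.33, and the groups overlapped. The difference was 0.70 (SE 0.74, with 2.31% of transcripts raised). At 100 mg/kg and 14 d, against the same controls, the arrays read 6.16, 7.27 and 7.82, all above the controls, with a difference of 2.40 (SE 0.74), or 5.27-fold. At that dose 24.8% of transcripts rose, and this one ranked 173 by size. The difference between the doses, into which no control enters, was tested. It was 1.70 (SE 0.74, 95% interval 0.22 to 3.17), the arrays did not overlap, and the adjusted p was 0.0638 with limma, where 20.8% of transcripts passed as higher at the higher dose. That p was 0.0364 without replicate 2 of the higher dose and 0.0109 with only these 2 groups in the fit, and from 0.0477 to 0.226 under the other alternatives.

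At 30 mg/kg and 28 d the 3 methapyrilene arrays disagreed, reading 5.38, 6.03 and 9.39, against 3.57, 4.66 and 4.91 in controls. Replicate 1, at 9.39, read higher than any of the 50 control arrays, and the other 2 lay within the range of controls of other sets. The difference was 2.55 (SE 0.74), against 5.37% of transcripts raised. It was 1.33 without replicate 1 and 2.15 without control replicate 3. Between 28 and 14 d at this dose the treated means differed by 1.54 (SE 0.74, 95% interval 0.07 to 3.02). This rise ranked 6 by size among 22470 transcripts, and the arrays overlapped. The adjusted p was 0.992 with limma, against 0.0402 before adjustment, so it does not show that the level stayed the same. Without replicate 1 at 28 d the difference was 0.32.

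With the thiazolidinediones the used treated arrays lay inside the range of their controls, while rosiglitazone replicate 5, left out as not of good quality, read 9.75. The water controls read 3.19, 3.25, 6.19, 6.42 and 8.19, the widest spread of any group. Pioglitazone at 16 mg/kg read 4.96, 5.17 and 6.72, and at 63 mg/kg 4.96, 5.43, 5.48, 6.51 and 7.10. Rosiglitazone at 10 mg/kg read 4.99, 5.77 and 6.95. The differences from water were 0.17 (SE 0.66, 95% interval -1.15 to 1.49, adjusted p = 0.974 with limma), 0.45 (SE 0.57, -0.69 to 1.59, adjusted p = 0.759) and 0.45 (SE 0.66, -0.86 to 1.77, adjusted p = 0.885). Of all transcripts, 0.0223%, 0.935% and 0.2% were raised. Each interval leaves room for a rise of 2.80-fold or more, so these arrays do not show that the level stayed as it was. Without water replicate 2 or replicate 5, the 2 lowest, each of the 3 differences was below 0, from -0.10 to -0.39. The difference was also below 0 without replicate 2 of pioglitazone at 16 mg/kg (-0.38) and without replicate 1 of rosiglitazone (-0.07). The 2 pioglitazone doses differed by 0.28 (SE 0.66, 95% interval -1.04 to 1.59, adjusted p = 0.915, with 0.0134% of transcripts called as higher at the higher dose), and the compounds were given at different doses, so no comparison between them was made.

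**Figure D2:**
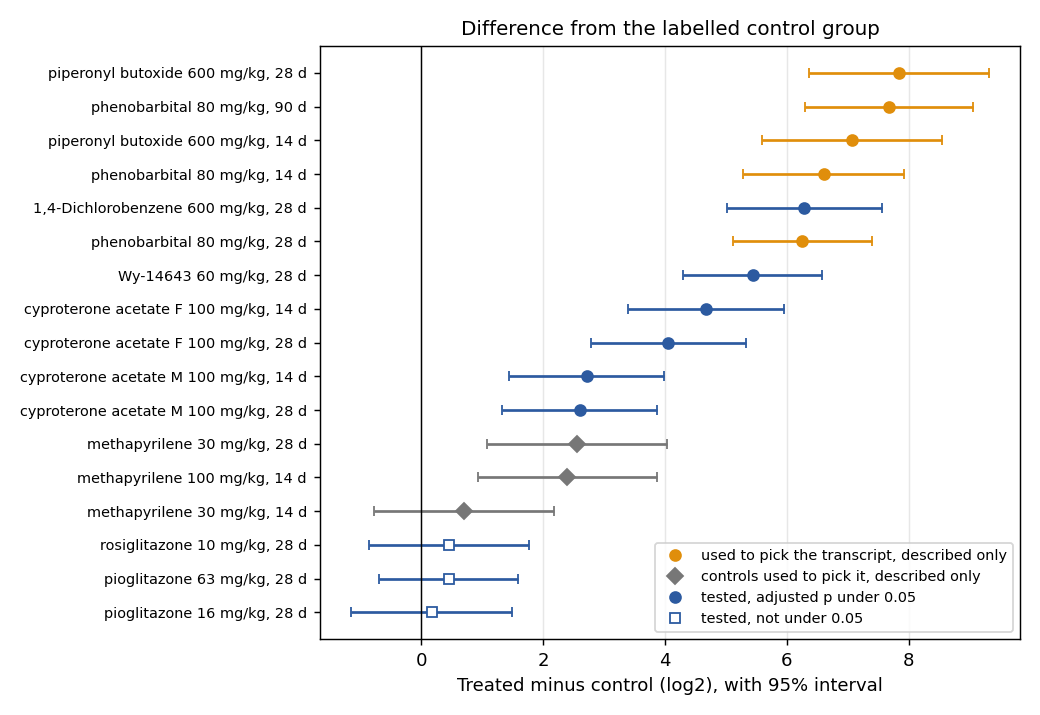
Treated minus control difference of ENSRNOT00000044127 in log2 units for the 17 treated groups, with 95% intervals from the fit over all groups. Filled blue circles passed an adjusted p under 0.05 (6 of the 9 tested) and open squares did not. Orange circles are the 5 differences that chose the transcript and grey diamonds the 3 methapyrilene differences, which share controls with them, all described only; the largest tested rise is 6.29 with 1,4-dichlorobenzene.

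The level varied widely among the livers of vehicle controls. In the 25 carboxymethylcellulose controls the level ran from 3.42 to 8.85 with a median of 4.91, in the 20 corn oil controls from 3.54 to 7.83 with a median of 5.39, and in the 5 water controls from 3.19 to 8.19. Within set B at 28 d, where both vehicles were used, every corn oil array (5.14 to 7.83) was above every carboxymethylcellulose array (3.42 to 4.86). The difference of 1.88 (SE 0.61, 95% interval 0.67 to 3.09) ranked 7 among 22470 transcripts but did not pass the test over all of them (adjusted p = 0.121 with limma, with 0.325% of transcripts called as higher), while an exact two-sided permutation test of this 1 transcript gave p = 0.00794, the smallest that 126 splits allow. From 1 day to the next one sampled, control means of 1 set and vehicle moved by no more than their pooled SD. They moved by 0.25 and -1.21 in set A, by -0.31 in set C, and by 0.37 in the M and 0.13 in the F controls of set D. The arrays overlapped in each case. Between 14 and 90 d in set A the means, 5.96 (SD 0.67) and 5.01 (SD 0.74), lay further apart than either SD, and the arrays overlapped.

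Animals of the same group differed far more in this transcript than in most. Its pooled SD within groups was 0.93, against a median of 0.20 over all transcripts, and 17 of the 22470 had a larger one. Within control groups alone it was 1.11, and 7 transcripts had a larger one. The spread was smaller at high levels: in the 9 treated groups whose mean lay above 8.85, the highest control array, the pooled SD was 0.36, with 2021 transcripts above it, and in the other 8 treated groups it was 1.04. By the used arrays, the narrowest group was phenobarbital at 14 d (SD 0.08, n = 3), where replicates 2 and 4, left out, read 12.49 and 12.05. The widest was the water controls (SD 2.18, n = 5), followed by methapyrilene at 30 mg/kg and 28 d (2.15, n = 3) and the set A controls at 28 d (1.67, n = 5). A second array labelled as a repeat of set A control replicate 3 at 14 d, not of good quality and not used, read 6.84 and the first array 6.85, against an SD of 0.67 between the 5 animals. The fit gives all groups the same SD, so its errors are too small for the widest groups and too large for the narrowest. With only the 2 groups compared in the fit, the error of the Wy-14643 rise was 0.29, that of the 30 mg/kg methapyrilene difference at 28 d was 0.94, and those of the thiazolidinedione differences were 0.88 to 1.08.

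**Figure D3:**
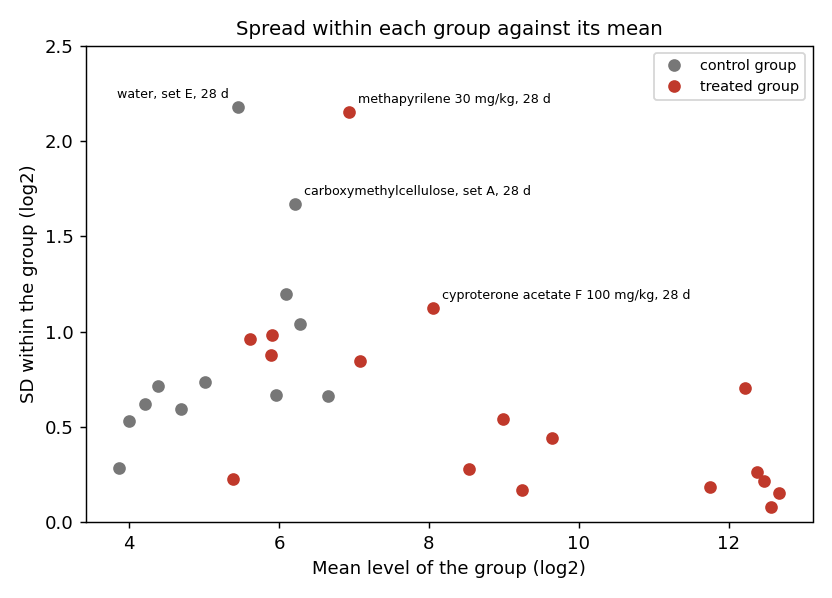
SD within each of the 29 groups against the mean level of the group, both in log2 units, with control groups in grey and treated groups in red. Groups with a mean near 4 and above 8.5 have SDs of at most 0.72, and the largest SDs, 1.67 to 2.18, belong to groups with means of 5.45 to 6.93.

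The transcript whose group means followed it most closely was ENSRNOT00000028196, which has no symbol here either. The correlation over the 29 group means was r = 0.90 (rho = 0.83), and 9 transcripts had an r above 0.8. Over the 19 groups that are neither phenobarbital, piperonyl butoxide nor their controls, r was 0.81, and 9 other transcripts were closer. It was also the closest by deviations of single arrays from their group means, with r = 0.61 over 112 arrays and 0.60 over the 50 control arrays. The points share arrays and normalization, and groups share controls, so these values are a description.

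On the 5 water control arrays, ENSRNOT00000028196 read 8.64, 5.86, 9.04, 7.73 and 6.86, in the order in which ENSRNOT00000044127 read 6.42, 3.25, 8.19, 6.19 and 3.19. Both were high on replicates 1, 3 and 4 and low on replicates 2 and 5. Its changes were smaller than those of ENSRNOT00000044127 with 1,4-dichlorobenzene (3.79 against 6.29), with Wy-14643 (3.72 against 5.44) and with phenobarbital at 28 d (4.10 against 6.25), close to them with cyproterone acetate in M at 14 d (2.59 against 2.72), and larger with methapyrilene at 30 mg/kg for 14 d (1.27 against 0.70) and pioglitazone at 63 mg/kg (0.61 against 0.45). They were of the other sign with rosiglitazone (-0.37 against 0.45), between the methapyrilene doses at 14 d (-0.38 against 1.70) and between 28 and 14 d at 30 mg/kg (-0.70 against 1.54). The F minus M difference of the cyproterone acetate rise at 28 d was also of the other sign (-0.67 against 1.46). Between F and M controls the 2 transcripts parted: ENSRNOT00000028196 differed by -0.45 at 14 d and 0.10 at 28 d (SE 0.54 each), where ENSRNOT00000044127 differed by -2.41 and -2.65.

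The next 4 transcripts by group means had r of 0.82 to 0.86, but their within-group deviations correlated by only -0.12 to 0.30, and their SD within groups was 0.12 to 0.22. At the other end, the 5 lowest had r of -0.77 to -0.72. The first 2 of these were ENSRNOT00000022527 and ENSRNOT00000017949. With 1,4-dichlorobenzene they changed by -0.34 and -0.86, and with Wy-14643 by -0.35 and -0.75, so these opposite changes were far smaller than the rise of ENSRNOT00000044127.

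**Figure D4:**
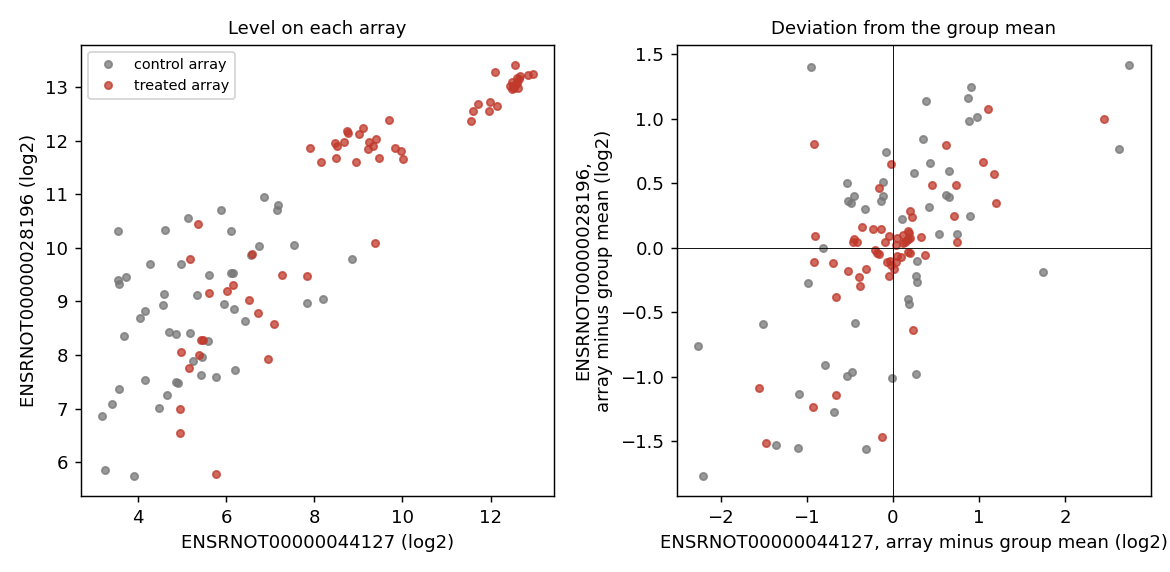
ENSRNOT00000028196 against ENSRNOT00000044127 on the 112 used arrays in log2 units, as levels (left) and as deviations of each array from its group mean (right), with control arrays in grey and treated arrays in red. The levels rise together, and the deviations correlate with r = 0.61.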

How the data were processed

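The deposited table holds log2 values for 23110 probe sets on 123 arrays, made by the authors with RMA and affy, per the submitters' processing notes, of unnamed version. The genome build, any detection call and whether the normalization took all arrays together are not given in the sources used here, so a low level cannot be told from background. Of the probe sets, 640 repeated the values of another and were left out. None could be paired with a symbol of the gene table (47357 genes), so the planned marker and pathway lists were not run. Arrays marked as not of good quality were left out. Group means were estimated from 112 arrays for 22470 transcripts with limma 3.58.1 in R 4.3.3 (83 residual and 4.23 prior degrees of freedom), with Benjamini-Hochberg adjustment over all transcripts in each comparison. P-values are given for 21 comparisons between groups that had no part in choosing the transcript, and 8 are described only. The SD in the main fit comes from all groups, so arrays of the groups that chose the transcript enter it. Fold changes are 2 to the power of log2 differences. The number of arrays limits the precision. The fit was tested on simulated data. Per the labels, animals were randomised to groups, and replicates were taken as separate animals. The transcript, comparisons and rules were chosen with earlier results of these data known. Likeness was the Pearson correlation over group means and over within-group deviations, and the first 5 transcripts at each end were taken, of which the highest 1 and the lowest 2 are printed by identifier. Alternatives were all arrays, the same control set only, median centring, quantile normalization, leaving out the dimmest 40% of transcripts, a trend with robust variances, replicate numbers as a block, exact permutation, and leaving out each array. A fit of only the 2 groups compared was added after the data were seen.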

Additional observations from a re-analysis of the deposited data

Results flagged for a closer look

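Within groups of 4 or 5 arrays, 1 array stood far from the rest of its group: set A control replicate 4 at 90 d read 3.91, where the other 3 used arrays read 5.25 to 5.44. Control replicate 5 of that group, left out as not of good quality, read 4.26. Of 18 groups tested in this way, about 1 in 20 would be marked by chance.

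Several treated arrays that were left out as not of good quality also read above all used controls of their comparison. They were the phenobarbital arrays of replicates 2 and 4 at 14 d (12.49 and 12.05) and of replicates 1 and 3 at 90 d (12.56 and 12.63), and 1,4-dichlorobenzene replicate 4 (12.41). Phenobarbital replicate 4 at 14 d lay below the used arrays of its group, which read 12.48 to 12.62. The others lay within the range of the used arrays of their groups. With all arrays, the mean of phenobarbital at 14 d was 12.45, against 12.57. Rosiglitazone replicate 5 read 9.75, where the highest water control read 8.19 and the used rosiglitazone arrays 4.99 to 6.95. ENSRNOT00000028196 read 9.35 on that array and 5.79 to 8.06 on the used rosiglitazone arrays. With all arrays in the fit, the rosiglitazone difference was 1.02 (adjusted p = 0.455 with limma), against 0.45.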

How the results depend on the processing

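Among the 21 tested differences, that between methapyrilene doses changed its side of the threshold under an alternative fit, and the others did not. It passed with only these 2 groups (1.70, adjusted p = 0.0109) and without the dimmest 40% of transcripts (1.70, adjusted p = 0.0477), where fewer transcripts are tested, and ran from 1.33 to 2.16 with 1 array left out (adjusted p 0.0364 to 0.226). The corn oil against carboxymethylcellulose difference in set B was not called by limma (adjusted p 0.0580 to 0.349 over its alternatives). Its exact permutation p of 0.00794 is for this 1 transcript and is not adjusted, and the limma p before adjustment was 0.00265. The methapyrilene difference from controls at 30 mg/kg and 28 d, described only, was 2.55. Its SE was 0.74 in the fit over all groups and 0.94 with only the 2 groups compared in the fit. With 1 array left out, the difference ran from 1.33 to 3.33. Groups of 3 against 3 cannot go below a permutation p of 0.1, so that test was left out for them. Same-numbered arrays of treated and control groups correlated in their deviations by -0.11 to 0.08 over 60 pairs. No sign of pairing by replicate number was seen, but such correlations cannot settle whether the numbers pair animals. With the numbers as a replicate block no call changed, and the 1,4-dichlorobenzene rise was 6.28 (adjusted p = 7.35e-12). With 1 array left out, the phenobarbital and piperonyl butoxide differences ran from 5.88 to 8.17.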
